A study of Homo sapiens with 6 samples.

Results

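Integrins are receptors that hold a cell to the matrix around it, and cadherins are receptors that hold a cell to its neighbours. An integrin is made of 1 alpha and 1 beta chain, and the combination sets which ligand is bound (laminin, collagen, fibronectin, vitronectin). The short tails of most beta chains recruit talin, kinases and the actin cytoskeleton. A cadherin binds the same kind of cadherin on the next cell in the presence of calcium. Many cadherins have tails that bind catenins, which link them to actin. In lung epithelium the laminin-binding integrins anchor cells to the basement membrane, and E-cadherin (CDH1) holds the cell sheet together.

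The members described here were the protein-coding genes of the deposited table whose symbols are those of an integrin alpha chain, an integrin beta chain or a CDH-numbered cadherin, which gave 49 genes of 58735 listed (19951 of them protein-coding). They comprised 18 alpha chains, 8 beta chains and 23 cadherins. RNA-seq compared A549 cells, a human lung adenocarcinoma line, that overexpressed IL17D from a lentiviral vector with A549 cells given the same vector without a gene (control); there were 3 libraries per group. In the methods of the study the vector is driven by the human PGK promoter and carries GFP behind an IRES, and the IL17D reading frame was amplified from cDNA of the H82 line; both groups were grown in RPMI1640 medium with serum. Whether the cells of a group were a pool or a single clone, and whether the libraries of a group came from separate cultures, is not given in the sources used here, so the p-values below measure the spread between these libraries, which may be technical.

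Libraries held 14319398 to 16521021 counts on genes. IL17D, the overexpressed cytokine gene on chromosome 13 (ENSG00000172458), had 24, 18 and 34 counts in the control libraries and 31274, 32155 and 26772 in the IL17D libraries, in accord with every label. The comparison asks what RNA the tumour cells themselves change when they carry the cytokine gene. Of the 49 members, 44 had at least 1 count and 29 had enough counts to be tested (14 alpha chains, 7 beta chains and 8 cadherins). ITGA8, CDH7, CDH9, CDH18 and CDH19 had no count in any library, and where a library had 0 counts the level could still reach 3 counts, or 0.182 to 0.210 CPM (each count relative to its library's total after TMM scaling), a limit that covers counting error only. The other 15 members never had more than 12 counts in 1 library. At the border of the filter, ITGB3 and ITGAX both had 38 counts over the 6 libraries, and ITGB3 was tested while ITGAX was not. Known epithelial genes were present unevenly: KRT8 and KRT18, the keratins of simple epithelium, were at 7201 to 7779 and 3504 to 3717 CPM, whereas EPCAM was at 0.622 to 1.31 CPM and CLDN7 at 0.182 to 0.738 CPM. PTPRC and CD3E, which define leukocytes and T cells, had no count.

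One sequence bears directly on the gene with the highest level, ITGB1 (chr10:32900319-33005792, minus strand, GRCh38). AC022149.1 is a processed pseudogene, a copy of spliced RNA pasted back into the genome, that lies at chr19:14621634-14622242 on the minus strand. It was compared with the ITGB1 transcript that has the longest coding sequence, and aligned to 570 of its 2403 coding bases (23.7%) with 99.1% identity. Of the 31-base stretches of ITGB1 exons, 9.40% occurred in the copy. The stretch with the most differences between the copy and this transcript is shown. Other ITGB1 transcripts were not compared, so whether reads from them also differ from the copy at the marked bases was not tested. The marked bases therefore describe the compared transcript, and are not shown to tell reads of ITGB1 from reads of the copy. The stretch spans coding bases 2266 to 2355, counted from the first base of the start codon in the compared GENCODE transcript, and capitals mark the 5 bases that differ.
ITGB1: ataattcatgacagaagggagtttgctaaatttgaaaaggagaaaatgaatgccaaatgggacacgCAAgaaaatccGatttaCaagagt
AC022149.1: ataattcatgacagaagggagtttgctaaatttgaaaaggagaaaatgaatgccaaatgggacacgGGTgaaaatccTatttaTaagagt
Reads on the aligned part can be assigned to either gene, and therefore the level of ITGB1 is given below also as the sum with this copy.

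Promoter sequences are shown for 3 members that the values below turn on: ITGB1, which fell in the IL17D libraries, and the neighbours ITGA1 and ITGA2, which lie next to each other on chromosome 5 and differed about 10-fold or more in level. Each runs from 250 bases before a RefSeq transcription start up to that start (GRCh38.p14), 5′ to 3′ on the strand of the gene, and capitals mark GC boxes (GGGCGG or CCGCCC), the short element bound by SP1-type factors.
ITGB1, chr10:32958231-32958480, minus strand: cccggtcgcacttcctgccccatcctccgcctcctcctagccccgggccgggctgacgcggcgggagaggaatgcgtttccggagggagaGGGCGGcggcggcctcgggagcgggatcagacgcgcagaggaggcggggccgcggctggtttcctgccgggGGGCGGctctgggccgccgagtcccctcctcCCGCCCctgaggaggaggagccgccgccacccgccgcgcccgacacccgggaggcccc
ITGA1, chr5:52787666-52787915, plus strand: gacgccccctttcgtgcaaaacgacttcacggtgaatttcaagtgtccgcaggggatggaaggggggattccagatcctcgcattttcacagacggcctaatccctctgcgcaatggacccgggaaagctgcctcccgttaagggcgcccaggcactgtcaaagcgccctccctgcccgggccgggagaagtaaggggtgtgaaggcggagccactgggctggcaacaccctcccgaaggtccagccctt
ITGA2, chr5:52989102-52989351, plus strand: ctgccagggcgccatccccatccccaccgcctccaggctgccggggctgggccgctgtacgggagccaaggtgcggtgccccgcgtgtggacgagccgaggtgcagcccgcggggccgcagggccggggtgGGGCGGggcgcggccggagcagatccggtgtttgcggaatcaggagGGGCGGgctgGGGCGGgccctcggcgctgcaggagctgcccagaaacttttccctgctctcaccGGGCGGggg
The window of ITGB1 was 78.4% G and C with 32 CpG and held 3 GC boxes, and that of ITGA2 was 76.4% G and C with 26 CpG and 4 GC boxes. The window of ITGA1 was 62.0% G and C with 16 CpG and held no GC box. On both strands, a GC box occurred in 42.6% of the 35116 RefSeq promoter windows of this length. Also searched, on both strands, were the E-box bound by ZEB and SNAI repressors (CAGGTG, in 17.5% of windows), the CCAAT box (in 32.0%), the TATA box (letters TATAAA, in 10.7%) and the site of AP-1 (letters TGACTCA, in 4.2%). None of these occurred in the 3 windows shown. Of the 49 members, 29 had a promoter entry, some with several starts. A GC box occurred in 10 of 29 windows of tested members (34.5%) and in 4 of 16 windows of untested members (25%), which is a description of letters and not of binding. ITGB1 has a second RefSeq start downstream of the one shown, whose window held no GC box. That window held 3 matches to the TATA box letters, at 102, 100 and 35 bases before the start. The matches at 102 and 100 bases overlap, and only the match at 100 bases was on the strand of the gene.

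The 29 tested members spanned more than 3 orders of magnitude in level. Levels are compared between genes as RPKM, that is CPM per kilobase of the gene's exons, and below as means of the 6 libraries. ITGB1, the beta chain shared by most matrix receptors, was at 351 RPKM and ranked 79 of the 15754 tested genes. ITGB5, a partner of the alphaV chain in binding vitronectin, was at 102 RPKM, ITGA3, a laminin receptor chain that pairs with ITGB1, at 93.6 RPKM, and ITGB4, the beta chain of hemidesmosomes, at 79.0 RPKM. These 4 were the members above 50 RPKM. ITGB5 and ITGA3 were separated in every library but by only a few RPKM (99.5 to 107 against 89.7 to 95.7), whereas ITGB1 was 4.13 to 4.86 times ITGB4 over the libraries.

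Between 5 and 50 RPKM lay 7 members. ITGA6, which pairs with ITGB4 or ITGB1 on laminin, was at 28.4 RPKM and ITGAV, the chain of receptors for RGD-containing ligands, at 24.8 RPKM, and their library ranges (27.2 to 29.6 and 23.5 to 27.0) did not overlap. The highest cadherin was CDH17, liver-intestine cadherin, at 11.9 RPKM. It was followed by ITGA2, the alpha chain of a collagen receptor, at 8.84 RPKM, by the type II cadherin CDH24 at 8.25 RPKM, by ITGA5, the chain of the classical fibronectin receptor, at 6.85 RPKM, and by CDH1 at 6.40 RPKM. The library ranges of ITGA2 and CDH24 overlapped each other, and so did those of ITGA5 and CDH1, so the order within each of these pairs was not resolved by the libraries. ITGAE, a chain that binds E-cadherin, was at 3.65 RPKM and ITGA2B, the platelet chain, at 1.14 RPKM. The remaining 16 tested members were under 1 RPKM, among them N-cadherin (CDH2) at 0.767 RPKM.

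**Figure D1:**
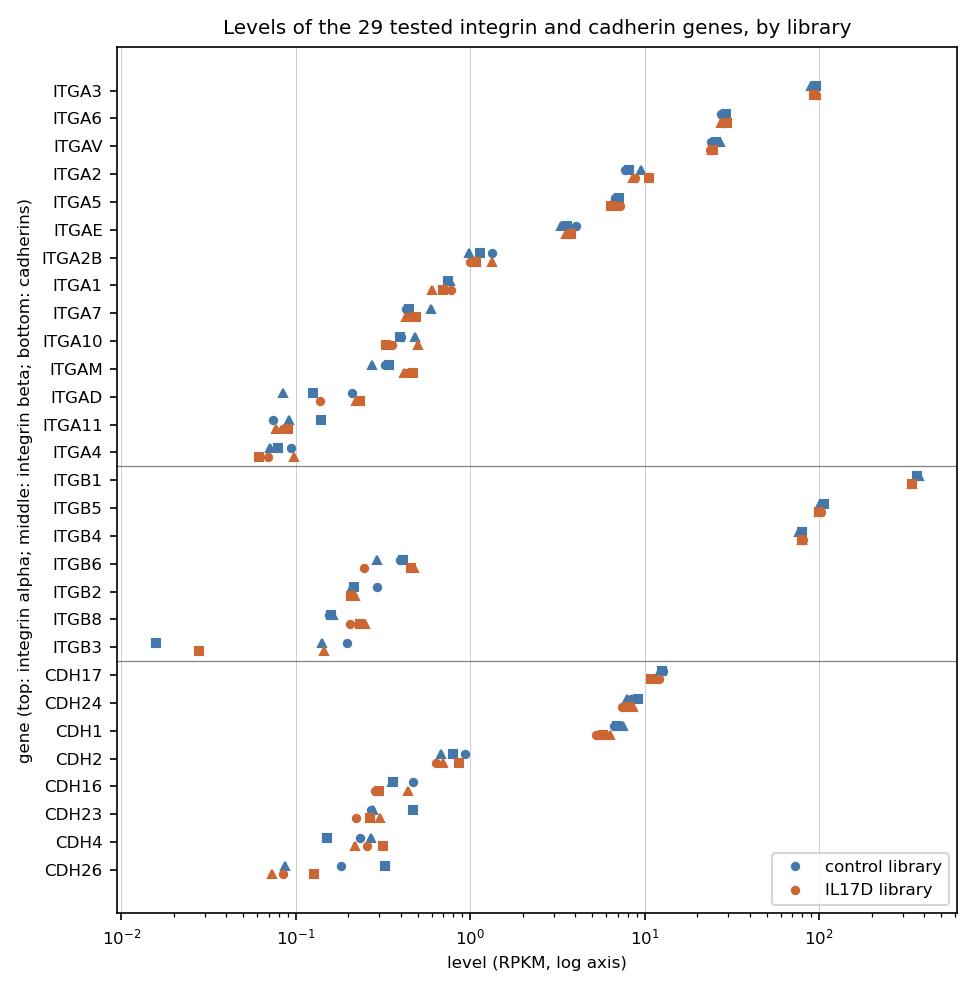
RPKM (log axis) of the 29 tested genes in each library, with control libraries in blue and IL17D libraries in orange, and circle, square and triangle for replicates 1, 2 and 3. ITGB1 lies alone above 300 RPKM, 16 genes lie under 1 RPKM, and for most genes the colours overlap.

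By adjusted p, 2 of the 29 tested members changed, and both fell in the IL17D libraries: ITGB1 and CDH1. Counting both directions, 1.58% of all 15754 tested genes were called by the same rule (an adjusted p under 0.05 from the quasi-likelihood test of edgeR, with adjustment by Benjamini and Hochberg). No member rose by this rule, for which the background is 0.673%, and 0.908% of all genes fell. At an unadjusted p under 0.05 there were 2 higher and 4 lower members (20.7% of the 29 tested, against 11.6% of all genes, of which 5.59% were higher and 5.99% lower). The count of risen members by adjusted p was also 0 with DESeq2's Wald test and with limma voom. Among genes with a mean of at least 20 CPM, where small changes are easier to resolve, 2 of 12 members and 2.66% of 7823 genes were called (lower, 1.53%). In a bulk sample, fewer cells of a type and less RNA per cell cannot be told apart.

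The direction was lower for 20 and higher for 9 of the tested members, with a median log2 fold change of -0.07. The sign of 8 of the 29, none of them called, changed when a library was left out. For all tested genes the median was 0.00, with 7828 higher and 7872 lower. The medians were -0.02 for the 14 alpha chains, -0.05 for the 7 beta chains and -0.18 for the 8 cadherins, of which 7 were lower. The groups of libraries did not overlap for 6 members (20.7%): ITGB8, ITGAM and ITGB4 were higher in each IL17D library, and ITGB1, CDH1 and CDH17 were lower in each. Over all tested genes, 15.8% did not overlap (7.48% higher and 8.31% lower).

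**Figure D2:**
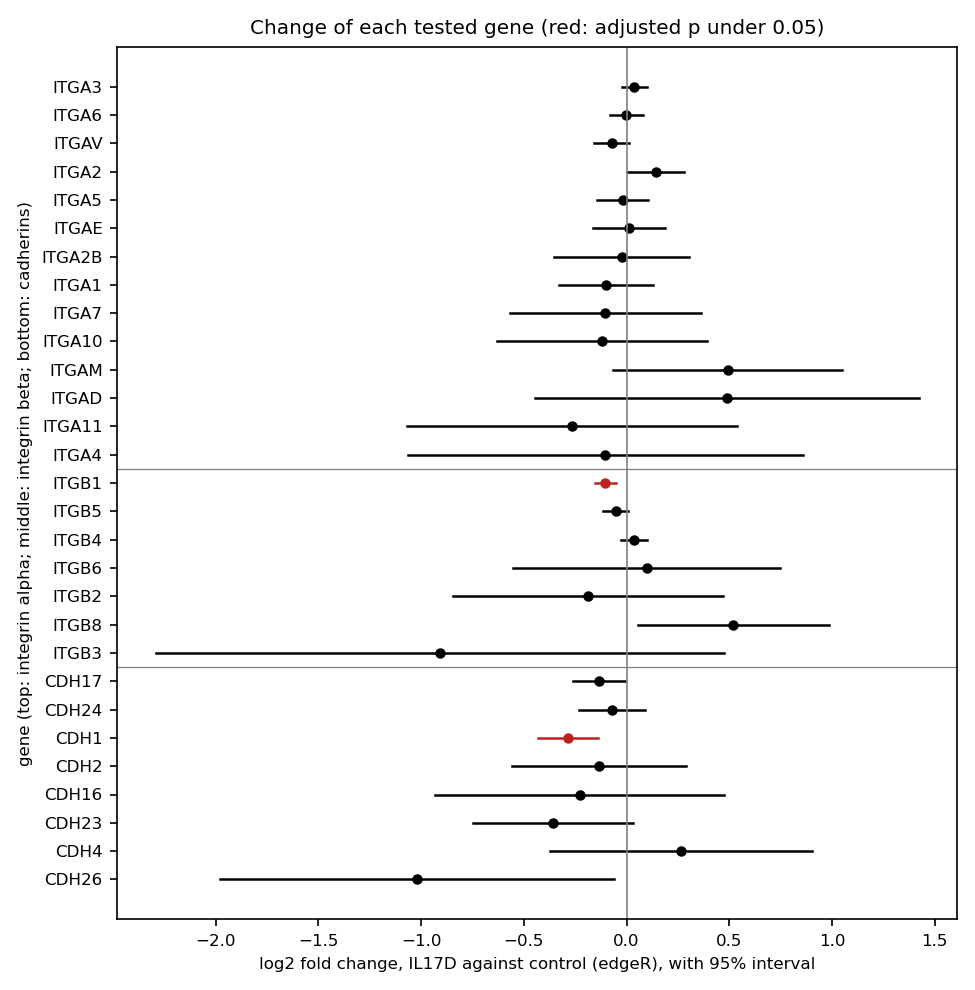
Log2 fold change of each tested gene (IL17D against control, edgeR) with its 95% interval, sorted by level within each family. The intervals of ITGB1 and CDH1 (red) lie below 0 and are called after adjustment, and the widest intervals belong to genes with few counts such as ITGB3.

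ITGB1 was at 2168, 2167 and 2233 CPM in the control libraries and at 2010, 2058 and 2039 CPM in the IL17D libraries. Every IL17D library lay below every control library. The mean was 2190 ± 38.0 CPM (SD, n = 3) in control and 2036 ± 24.1 CPM in IL17D, so the gene fell by 7.03% (log2 fold change -0.11, SE 0.0251, 95% interval -0.16 to -0.05), with an edgeR adjusted p of 0.018. The fall is small but is larger than the spread between libraries in this fit. The pseudogene copy AC022149.1 was not called, at 64.4 ± 5.76 CPM in control and 66.3 ± 0.322 CPM in IL17D (log2 fold change 0.04, edgeR adjusted p 0.86). Summed with this copy, ITGB1 was at 2235 to 2291 CPM in the control libraries and 2077 to 2124 CPM in the IL17D libraries, a log2 ratio of -0.10, and the copy made up 2.52 to 3.21% of the sum. Over 13 alternative fits the adjusted p of ITGB1 ranged from 0.00112 to 0.168. It was 0.06 without control replicate 3, 0.168 without IL17D replicate 1 and 0.133 without IL17D replicate 3.

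CDH1 (ENSG00000039068, chr16:68737225-68835548), which encodes E-cadherin, was at 40.9, 43.1 and 46.2 CPM in the control libraries and at 32.4, 35.6 and 39.0 CPM in the IL17D libraries. The lowest control library and the highest IL17D library were close to each other, but the groups did not overlap. CDH1 fell by 17.9%, from 43.4 ± 2.65 to 35.7 ± 3.32 CPM (log2 fold change -0.28, SE 0.0723, 95% interval -0.43 to -0.14), with an edgeR adjusted p of 0.031. Over 13 alternative fits its adjusted p ranged from 0.00883 to 0.26, and it passed 0.05 in 8 of them. It was 0.0826 with DESeq2's Wald test, and without control replicate 2, control replicate 3, IL17D replicate 1 or IL17D replicate 2 it was 0.0729, 0.129, 0.26 and 0.0755. The 6 epithelial marker genes checked beside it (EPCAM, KRT8, KRT18, KRT19, CLDN4 and CLDN7) summed to 11078 to 11504 CPM in control and 10769 to 11012 CPM in IL17D. Nearly all of that sum came from KRT8 and KRT18. Of the 6 genes, 4 were tested, all with a negative log2 fold change, and none was called by edgeR's adjusted p. At an unadjusted p under 0.05 there were 2, both lower (50%, against 5.99% of all genes lower). CLDN4, a tight junction claudin, was at 5.01 ± 0.465 CPM in control and 3.17 ± 0.723 CPM in IL17D (log2 fold change -0.65, edgeR adjusted p 0.11). Their part in the CDH1 result was not tested.

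**Figure D3:**
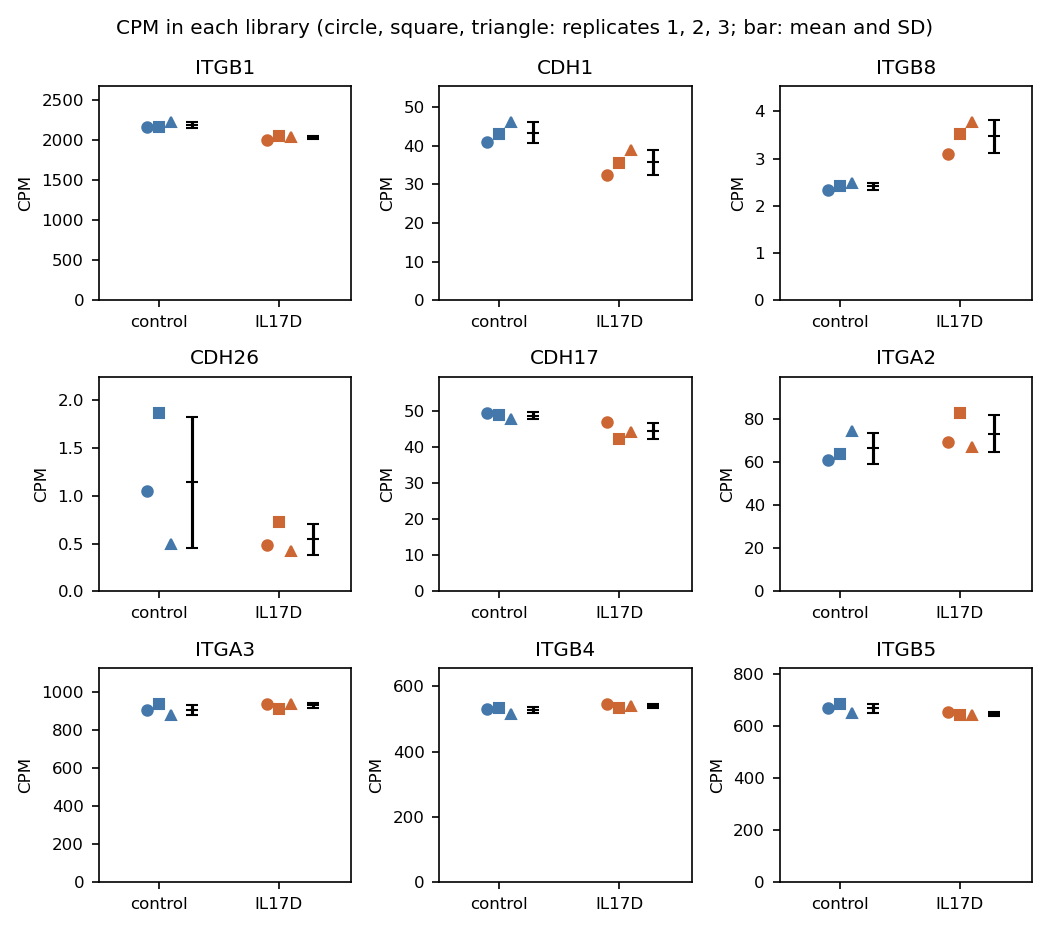
CPM of 9 members in each library (blue, control; orange, IL17D; circle, square and triangle for replicates 1, 2 and 3; black bar, mean and SD of 3 libraries), each axis starting at 0. ITGB1 and CDH1 are lower in all 3 IL17D libraries, ITGB8 is higher in all 3, and CDH26 and ITGA2 overlap between the groups.

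ITGB8, which with the alphaV chain activates latent TGF-beta, had the largest difference in the upward direction among members past an unadjusted p of 0.05. It was at 2.34, 2.42 and 2.49 CPM in control and at 3.10, 3.53 and 3.78 CPM in IL17D. The groups did not overlap, but each value rests on only 35 to 58 counts. The log2 fold change was 0.52 (SE 0.229, 95% interval 0.05 to 0.98), with an unadjusted p of 0.03 and an edgeR adjusted p of 0.36. CDH26 was at 1.05, 1.87 and 0.497 CPM in control and at 0.486, 0.73 and 0.42 CPM in IL17D. Its control libraries differed among themselves by more than 3-fold and the groups overlapped (6 to 27 counts per library). The log2 fold change was -1.02 (95% interval -1.98 to -0.06, edgeR adjusted p 0.39). It was -0.49 without control replicate 2.

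Among the other cadherins, CDH17 (chr8:94127171-94217303) was at 49.5, 48.9 and 47.8 CPM in control and at 46.8, 42.3 and 44.1 CPM in IL17D. All 3 IL17D libraries were below the controls, by a log2 fold change of -0.13 (SE 0.0625, 95% interval -0.26 to -0.01, edgeR adjusted p 0.40). CDH24 was at 31.1, 34.3 and 29.6 CPM against 27.8, 30.5 and 32.2 CPM. The groups overlapped, and the interval of its log2 fold change ran from -0.23 to 0.09 (-0.12 to -0.01 over the fits with a library left out). CDH23, the cadherin of the tip links of hair cells, was at 4.98, 8.71 and 5.16 CPM against 4.13, 4.93 and 5.61 CPM. Control replicate 2 stood above the other libraries (log2 fold change -0.36, edgeR adjusted p 0.49), and without it the log2 fold change was -0.06. C10orf105 on the opposite strand shares 18.3% of the 31-base stretches of CDH23, and it had 0 counts in every library. CDH2 was at 3.97 ± 0.629 CPM in control and at 3.62 ± 0.571 CPM in IL17D, with an interval of -0.56 to 0.29. CDH2 made up 10.3 ± 2.01% of the summed CDH1 and CDH2 RPKM in control and 11.2 ± 1.58% in IL17D, and the libraries overlapped. CDH4, R-cadherin, was the 1 tested cadherin with a positive log2 fold change (0.26, edgeR adjusted p 0.83), and CDH16, kidney cadherin, was at -0.23 (adjusted p 0.88).

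None of the 14 tested alpha chains was called by edgeR's adjusted p, and 1 had an unadjusted p under 0.05. That 1 was ITGA2, at 60.9, 63.9 and 74.7 CPM in control and at 69.7, 83.1 and 67.3 CPM in IL17D. The groups overlapped, and the log2 fold change was 0.14 (95% interval 0.00 to 0.28, edgeR adjusted p 0.41). It was 0.04 without IL17D replicate 2, 0.08 without control replicate 1 and 0.24 without control replicate 3. ITGA3 and ITGA6, the laminin-binding chains with the highest levels, were well measured. ITGA3 was at 903, 935 and 879 CPM in control and at 937, 912 and 938 CPM in IL17D (interval of the log2 fold change -0.02 to 0.10). ITGA6 was at 180, 191 and 186 CPM in control and at 185, 193 and 178 CPM in IL17D (interval -0.08 to 0.08). Changes of these 2 genes beyond those bounds lay outside the 95% intervals. ITGAV was at 196, 210 and 222 CPM in control and at 193, 203 and 200 CPM in IL17D, with overlapping groups (log2 fold change -0.07, interval -0.16 to 0.01, edgeR adjusted p 0.54). It was -0.12 without control replicate 1 and -0.03 without control replicate 3. ITGA5 was at 51.4, 54.0 and 51.3 CPM against 54.3, 48.4 and 51.9 CPM (interval -0.14 to 0.11). ITGAE was at 26.8, 23.9 and 21.9 CPM against 24.6, 25.1 and 23.6 CPM (interval -0.16 to 0.19), and both overlapped between the groups. HASPIN on the opposite strand shares 6.0% of the 31-base stretches of ITGAE. It had 201 to 317 counts per library, against 337 to 436 for ITGAE.

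The chains of myeloid integrins had low levels. ITGAM, which pairs with ITGB2 on myeloid cells, was at 1.85, 1.94 and 1.55 CPM in control and at 2.43, 2.68 and 2.38 CPM in IL17D. The groups did not overlap (25 to 44 counts per library), and the log2 fold change was 0.49 (SE 0.273, 95% interval -0.06 to 1.05, edgeR adjusted p 0.52). ITGB2, its partner chain, was at 0.224 RPKM (log2 fold change -0.19, edgeR adjusted p 0.89). Over 7 leukocyte marker genes, ITGAM included, the summed level was 2.30 to 3.25 CPM in control and 3.29 to 3.89 CPM in IL17D. PTPRC and CD3E were at 0 in all libraries. Most of the sum was ITGAM itself in every library, so the sums are not separate evidence on the other markers. Of these, only CD14 was tested, and its groups overlapped (edgeR adjusted p 0.95). The part of the other markers in the ITGAM values was not tested. Over 5 endothelial markers, CDH5 included, the sum was 0.346 to 0.435 and 0.0701 to 0.608 CPM with KDR and TEK at 0, and over 6 fibroblast markers it was 22.7 to 25.2 and 19.6 to 24.4 CPM, nearly all of it from COL1A1.

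The other abundant beta chains were not called. ITGB5 was at 671, 687 and 653 CPM in control and at 655, 642 and 642 CPM in IL17D, with a narrow overlap between the groups (log2 fold change -0.05, interval -0.11 to 0.01, edgeR adjusted p 0.54). ITGB4 was at 530, 535 and 516 CPM in control and at 547, 535 and 540 CPM in IL17D. Before rounding each IL17D value was above each control value, and the log2 fold change was 0.04 (interval -0.03 to 0.10, edgeR adjusted p 0.72). ITGB6, another alphaV partner, was at 0.380 RPKM with a log2 fold change of 0.10 (edgeR adjusted p 0.95). ITGB3 had 14, 1 and 10 counts in control and 2, 2 and 9 in IL17D (adjusted p 0.68), and 51.0% of its 31-base stretches also occur in AC068234.1, which had no count.

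Summed over each family, the beta chains were at 544, 547 and 550 RPKM in control and at 518, 522 and 520 RPKM in IL17D, with the groups apart. The alpha chains were at 169 ± 3.53 and 171 ± 0.863 RPKM. The cadherins were at 29.9, 31 and 29.5 RPKM in control and at 26.4, 26.8 and 28 RPKM in IL17D, again with the groups apart. These sums contain the members called above and are given as a description. The ratio of summed beta to summed alpha RPKM was 3.16 to 3.28 in control and 3.03 to 3.06 in IL17D. Within the beta chains, ITGB1 made up 66.3, 65.9 and 67.5% in control and 64.6, 65.6 and 65.3% in IL17D, and ITGB4 made up 14.2 ± 0.317% and 15.4 ± 0.241%. Within the alpha chains, ITGA3 made up 54.7 ± 1.23% and 55.5 ± 1.15% and ITGA6 16.8 ± 0.203% and 16.6 ± 0.605%. Within the cadherins, CDH17 made up 41.5 ± 0.934% and 42.1 ± 2.96%, CDH24 28 ± 1.42% and 29.7 ± 1.35% and CDH1 23.3 ± 1.75% and 21.3 ± 1.34%, so their libraries overlapped in composition.

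**Figure D4:**
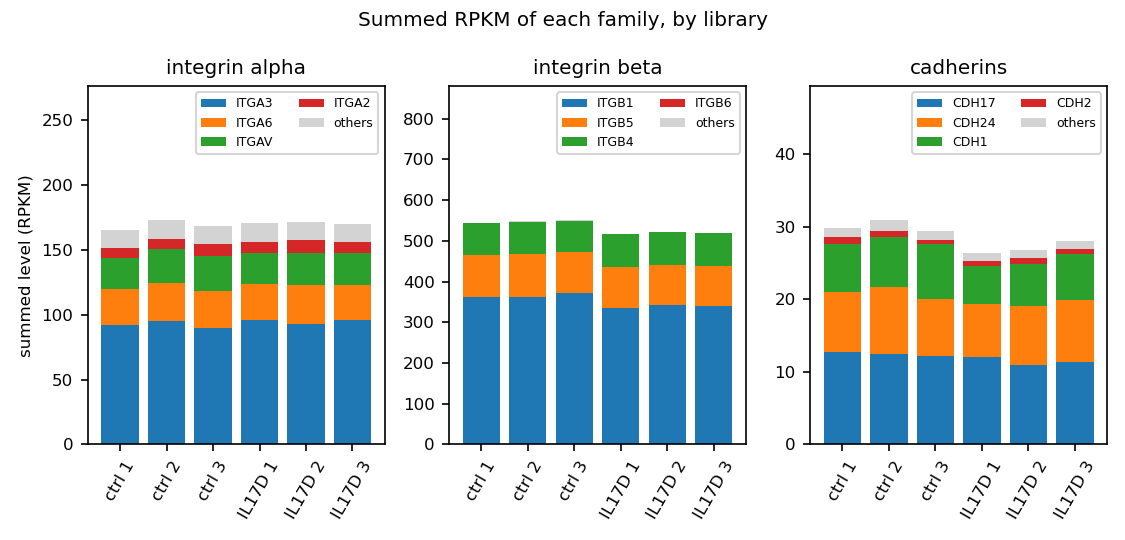
Summed RPKM of the alpha chains, beta chains and cadherins in each library, each bar starting at 0 and divided into the 4 members with the highest level and the others. ITGB1 is more than 64% of the beta bar in every library, ITGA3 more than 53% of the alpha bar, and the beta and cadherin bars are lower in the 3 IL17D libraries.

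Neighbouring members could differ widely in level. Chromosome 16 carried 12 of the members (4 integrins and 8 cadherins), of which 4 were tested, whereas all 5 members on chromosome 17 were tested. CDH3 (P-cadherin) lies 14.6 kb before CDH1, and was at 0.0208 RPKM while CDH1 was at 6.40 RPKM. ITGA1 and ITGA2, both collagen receptor chains, lie 30.1 kb apart, and ITGA2 was 10.5 to 15 times ITGA1 in RPKM over the libraries. ITGAM, ITGAX and ITGAD lie within a stretch with gaps of 22.2 and 10.3 kb, and were all low, at 0.376, 0.0574 and 0.169 RPKM.

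Genes whose products work with integrins and cadherins were read from 4 lists written for this comparison. Of 45 integrin adaptors and signalling genes, 42 were tested, and 2 fell and none rose by edgeR's adjusted p (4.76% of those tested, against 1.58% of all genes). At an unadjusted p under 0.05 there were 7 (16.7%, against 11.6% of all genes), 4 of them higher, and the median log2 fold change was 0.04. SRC, the kinase that binds beta chain tails and acts with focal adhesion kinase, was at 565, 543 and 520 CPM in control and at 475, 473 and 471 CPM in IL17D. The groups were apart (log2 fold change -0.20, SE 0.0327, edgeR adjusted p 0.00024). TNS3, a tensin that links beta chain tails to actin, was at 565, 565 and 584 CPM in control and at 494, 512 and 499 CPM in IL17D. The groups were again apart (log2 fold change -0.19, SE 0.0311, edgeR adjusted p 0.00025), and both genes were called in all 13 alternative fits.

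Of 37 catenins and junction proteins, 29 were tested, and 1 rose and none fell by edgeR's adjusted p (3.45%, against 1.58% of all genes). At an unadjusted p under 0.05 there were 7 (24.1%, against 11.6%), 4 of them lower, and the median log2 fold change was -0.01. DSP, desmoplakin, which ties desmosomes to keratin filaments, was at 205, 213 and 212 CPM in control and at 232, 240 and 233 CPM in IL17D. The groups were apart (log2 fold change 0.16, SE 0.0368, edgeR adjusted p 0.013). Its adjusted p was 0.0792 without control replicate 1, 0.0843 without IL17D replicate 2 and 0.0569 without IL17D replicate 3. The catenins that bind the tail of CDH1, chosen for mention by role after their values were seen, were not called. CTNNB1 was at 207 ± 4.19 and 202 ± 2.46 CPM, CTNNA1 at 392 ± 13.0 and 383 ± 5.73 CPM and CTNND1 at 332 ± 9.36 and 315 ± 7.21 CPM in control and IL17D (edgeR adjusted p 0.82, 0.79 and 0.39). JUP, the catenin plakoglobin, was at 329 ± 15.9 and 311 ± 8.9 CPM (edgeR adjusted p 0.38). CTNND1 and JUP were among the 4 lower at an unadjusted p under 0.05 (edgeR p 0.039 and 0.034). The groups did not overlap for CTNND1 but did for JUP.

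Of 56 integrin ligand genes, 43 were tested, and 2 rose and 2 fell by edgeR's adjusted p (9.30%, against 1.58% of all genes). At an unadjusted p under 0.05 there were 11 (25.6%, against 11.6%), 5 higher and 6 lower, and the median log2 fold change was -0.01. FN1, fibronectin, was at 234, 255 and 253 CPM in control and at 210, 213 and 213 CPM in IL17D, with the groups apart (log2 fold change -0.22, SE 0.0382, edgeR adjusted p 0.0004). HSPG2, the basement membrane proteoglycan perlecan, was at 479, 526 and 507 CPM in control and at 448, 451 and 448 CPM in IL17D (log2 fold change -0.17, SE 0.0336, adjusted p 0.0033). Both are matrix proteins that were lower in every IL17D library. CYR61, a secreted matricellular ligand of alphaV integrins, rose from 79.1 ± 1.12 to 91.5 ± 1.69 CPM (log2 fold change 0.21, SE 0.048, adjusted p 0.012). NPNT, nephronectin, a basement membrane ligand of the ITGA8 receptor, rose from 9.37 ± 1.18 to 13.2 ± 1.18 CPM (log2 fold change 0.48, adjusted p 0.03, called in 8 of 13 alternative fits). Without control replicate 2 the adjusted p of HSPG2 was 0.0581 and that of CYR61 0.0719, and without IL17D replicates 1 and 3 that of CYR61 was 0.0805 and 0.0685. The adjusted p of NPNT ranged up to 0.218 over the alternative fits: it was 0.0826 with DESeq2's Wald test, 0.0528 and 0.205 without control replicates 1 and 2, and 0.0759 and 0.218 without IL17D replicates 1 and 3. ITGA8 itself had no count in any library.

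Of 20 transcription regulators known to act on integrin or cadherin genes, 15 were tested, and 1 fell and none rose by edgeR's adjusted p (6.67%, against 1.58% of all genes). At an unadjusted p under 0.05 there were 4 (26.7%, against 11.6%), 3 of them higher, and the median log2 fold change was 0.08. ELF3, an epithelium-specific ETS factor, was at 139, 146 and 133 CPM in control and at 116, 116 and 112 CPM in IL17D. The groups were apart (log2 fold change -0.28, SE 0.044, edgeR adjusted p 9.1e-05). The repressors of CDH1 transcription SNAI1, SNAI2, ZEB1 and TWIST1 were tested and not called (edgeR adjusted p 0.61, 0.94, 0.75 and 0.55), and were named by role after their values were seen. Their log2 fold changes were 0.24, 0.17, 0.08 and 0.64, with SNAI2 and TWIST1 at a mean of only 0.718 and 1.30 CPM. The 3 regulators higher at an unadjusted p under 0.05 were KLF4, TCF3 and YAP1, each with the groups apart. Their log2 fold changes were 0.25, 0.10 and 0.13 (edgeR adjusted p 0.19, 0.36 and 0.23). Of the 15 tested, 10 were higher and 5 lower.

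**Figure D5:**
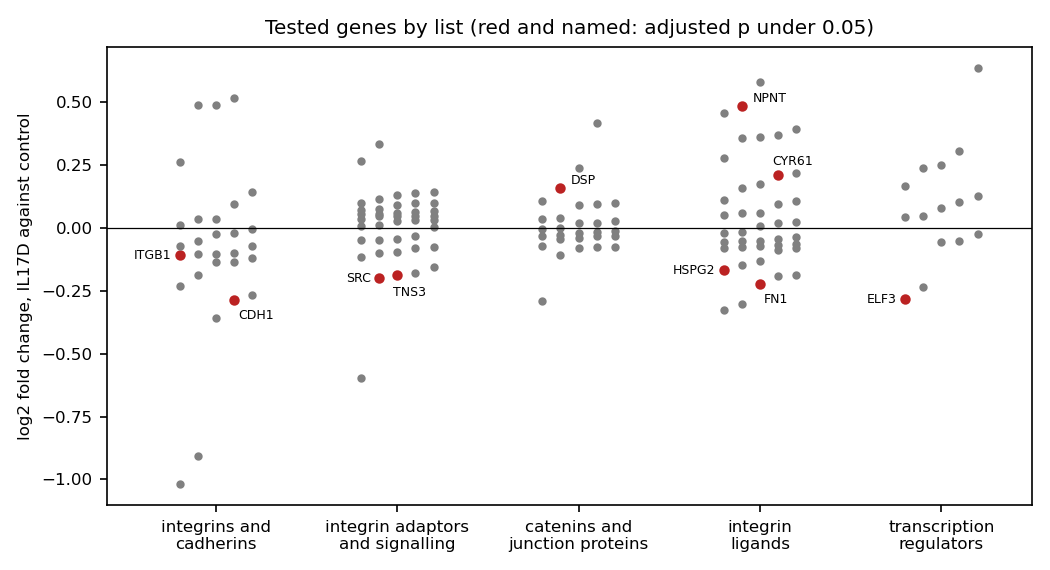
Log2 fold change (IL17D against control) of each tested gene in the integrins and cadherins and in the 4 lists of genes that work with them, with 1 point per gene. The 10 genes with an adjusted p under 0.05 are red and named, and the points of every list lie on both sides of 0.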

How the data were processed

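RNA was sequenced from 3 libraries of A549 cells with an IL17D vector and 3 with the empty vector, and groups were taken from the sample labels. The authors deposited 1 table of counts, the number of reads per gene and library, with no normalization. Bowtie2 and hg38 are named in the submitters' processing notes; the counting tool and its strand setting are not given in the sources used here, and reads shared by copies or by genes on opposite strands can be split. Gene coordinates match GENCODE release 29 for all 49 members.

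Counts were analysed in R 4.3.3 with edgeR 4.0.16: filterByExpr kept 15754 genes, libraries were scaled by TMM, and glmQLFit and glmQLFTest were run without covariates, two-sided, with Benjamini-Hochberg adjustment over all 15754 genes. SE is the log2 fold change divided by the root of F. RPKM is CPM per kilobase of the deposited gene length. Alternatives were DESeq2 1.42.0 (size factors in edgeR, and its Wald test), limma 3.58.1 voom, no filter, a filter at 10 counts in every library, a fit blocked on replicate number, each library left out, and total-count scaling, which was added after the data were seen. The fit was tested on simulated counts. Tables and figures were made in Python 3.11.15.

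Members named are those past an adjusted p of 0.05, or past an unadjusted p of 0.05 with a log2 fold change of at least 0.2 either way, then the 5 others with the smallest p, and every other member at 20 CPM or more; from the partner lists, at most 6 genes each with an adjusted p under 0.05. Further members are named by level or position. The members, lists and tests were chosen with earlier results of these data known.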

Additional observations from a re-analysis of the deposited data

How the results depend on the processing

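Over the 13 alternative fits, ITGB1 and CDH1 were the members called in any of them, always lower, and no member was called higher. The members called lower (2) numbered 1 with DESeq2's Wald test, which lost CDH1, and 0 to 2 when each library was left out. Past an unadjusted p of 0.05 and a log2 fold change of 0.2 either way, 405 of 15754 tested genes were higher and 541 lower. The members past both thresholds were 1 higher and 2 lower. With DESeq2's Wald test they were 0 and 1, with limma voom 1 was lower, with at least 10 counts in every library 1 was lower, and with a library left out they were 0 to 2 higher and 1 to 3 lower. The median log2 fold change of the members (-0.07) was -0.12 without the filter on low counts, where 44 members were tested, and -0.076 to -0.031 when each library was left out. The count of called genes was 0 to 1 for the catenin list and 1 to 5 for the ligand list with a library left out. Of the 29 tested members, 8 changed sign when a library was left out, none of them called, and none did so in the other alternatives: ITGA5 (-0.059 to 0.026), ITGAE (-0.056 to 0.094), ITGA6 (-0.033 to 0.027), ITGA11 (-0.454 to 0.021), ITGA7 (-0.197 to 0.068), ITGB6 (-0.06 to 0.349), ITGA4 (-0.305 to 0.028) and ITGA2B (-0.144 to 0.097). Of the other genes followed over these fits, SNAI2 (-0.128 to 0.543) and the copy AC022149.1 (-0.028 to 0.089) did so too. Replicate numbers did not pair the samples: the deviations of same-numbered libraries correlated at -0.0151 to 0.00997. With the replicate number as a block, 2 members were called, ITGB1 and CDH1 again (edgeR adjusted p 0.0423 and 0.00981), and no call on a member changed. The scalings tried moved the median of all genes by less than 0.01 on the log2 scale. With at most 12 counts in a library, the 15 members below the filter could not be compared at this depth.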
